A study of Mus musculus with 12 samples.

Results

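The CD11 and CD18 integrin genes Itgam, Itgax, Itgal and Itgb2 were followed on every array probe that carries 1 of these names, which gave 4 of 34810 gene names and 8 of the 55681 gene probes on the array: 3 for Itgam, 1 for Itgax, 3 for Itgal and 1 for Itgb2. The study hybridized 12 Agilent arrays in 1 colour, 3 for each of 4 groups of mouse cells. Op/op renal cells came from homozygous mice of the strain B6C3Fe a/a-Csf1op/J, and WT renal cells from wild-type mice of that strain. Both genotypes had received glyoxylate at 80 mg/kg for 6 days, and the kidney cells were magnetically sorted as CD11b+/CD11c+, so the proteins made from Itgam and Itgax were themselves used to pick the renal cells. M1 cells were bone marrow derived macrophages stimulated with LPS and GM-CSF, and M2 cells were bone marrow derived macrophages stimulated with IL-4 and M-CSF. The labels give the same strain for the marrow cells but not the genotype of their donors, and no ages, and they repeat the glyoxylate and kidney sort text on the marrow samples, so whether the marrow donors were treated is unclear. Csf1, the gene mutated in op/op mice, encodes M-CSF, so the op/op host lacks the growth factor that the M2 culture was given.

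CD11/CD18 integrins are the leukocyte-specific integrins. Each is a pair of chains on the cell surface: an alpha chain, CD11a (Itgal, in LFA-1), CD11b (Itgam, in Mac-1) or CD11c (Itgax), joined to the shared beta chain CD18 (Itgb2), without which no alpha chain reaches the surface. LFA-1 binds ICAMs, and Mac-1 and the CD11c integrin bind the complement fragment iC3b and fibrinogen, which serves adhesion, migration and the uptake of opsonized particles. In the kidney, CD11b and CD11c mark macrophages and dendritic cells.

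The probes lie on chromosome 7 for the alpha chains and on chromosome 10 for the beta chain, all on the plus strand of mm9, the build of the file annotation. The Itgam probes start at positions 270 and 3410 of the transcript (chr7:135212140-135212199 and chr7:135260275-135260334) and at position 4431 (chr7:135261755-135261814). The Itgax probe starts at position 3905 (chr7:135294052-135294111) and the Itgb2 probe at position 2420 (chr10:77027978-77028037). A pair of Itgal probes, at positions 3637 and 3727 (chr7:134477064-134477123 and chr7:134477160-134477219), lies on RefSeq transcripts, whereas the third Itgal probe (chr7:134474711-134474767) is listed for a cDNA clone and for no RefSeq transcript. Probes with a transcript position are called by it below, the third Itgal probe is called the clone probe, and the Itgam probe at 4431 is called the repeat probe. The Itgam probes at 270 and 3410 are shown whole because their values moved together, and the first 30 bases of the repeat probe because it did not follow them. Its capitals mark 10 CA units in a row, which fill its first 20 bases. The first 30 bases of the Itgax and Itgb2 probes are shown for comparison, as neither opens with a repeat.
Itgam 270 probe: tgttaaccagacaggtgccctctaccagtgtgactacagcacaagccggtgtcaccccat
Itgam 3410 probe: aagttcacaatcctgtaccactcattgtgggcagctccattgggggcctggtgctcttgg
Itgam repeat probe, first 30 bases: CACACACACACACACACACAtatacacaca
Itgax probe, first 30 bases: tcccatctacttttgcaacgttggaattga
Itgb2 probe, first 30 bases: aaagctagagcatgagttatcataatcaag

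All levels are log2 signals relative to the array's 75th percentile, which is 0, and differences are log2 differences from a limma fit with Benjamini-Hochberg adjustment over all probes tested. A probe is called where its adjusted p is under 0.05, and SDs are over n = 3 arrays. All 8 probes were well above background, by the scanner's own flag, on all 12 arrays, except that the Itgal clone probe missed on M2 replicate 4. The share of all probes well above background was 63.1% to 68.7% on op/op, 76.1% to 79.3% on WT, 72.6% to 75.1% on M1 and 64.3% to 65% on M2 arrays. Arrays of 1 group correlated at r = 0.935 to 0.995 across probes, and the median residual SD was 0.325 among renal and 0.136 among marrow arrays. WT replicate 1 was alone on a slide, the other 5 renal arrays shared a slide and the 6 marrow arrays another. Nothing in the labels says that arrays of a group stem from different mice or cultures, so the p-values cover the spread between these arrays, perhaps a technical one, and the number of arrays limits the precision. Genes of the culture labels followed them: Nos2 was higher (2.11) and Arg1 lower (-4.14) in M1 than in M2.

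Itgax, the gene of the sorting antigen CD11c, separated all 4 groups without overlap. Its level was 0.05, 0.15 and 0.25 on the op/op arrays, against 1.59, 2.19 and 1.51 on the WT arrays. It was -1.16, -1.22 and -0.97 on the M1 arrays, against 2.99, 3.04 and 3.1 on the M2 arrays. M2 cells were highest, then WT renal cells, op/op renal cells and M1 cells, and every step in that order passed the test, with adjusted p = 0.000174, 0.000444 and 8.51e-05 from the top. Itgax fell 3.06-fold in op/op against WT cells (-1.62, 95% interval -2.03 to -1.2) and was 17.8-fold lower in M1 than in M2 cells (-4.16, interval -4.58 to -3.74, adjusted p = 7.17e-08).

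**Figure D1:**
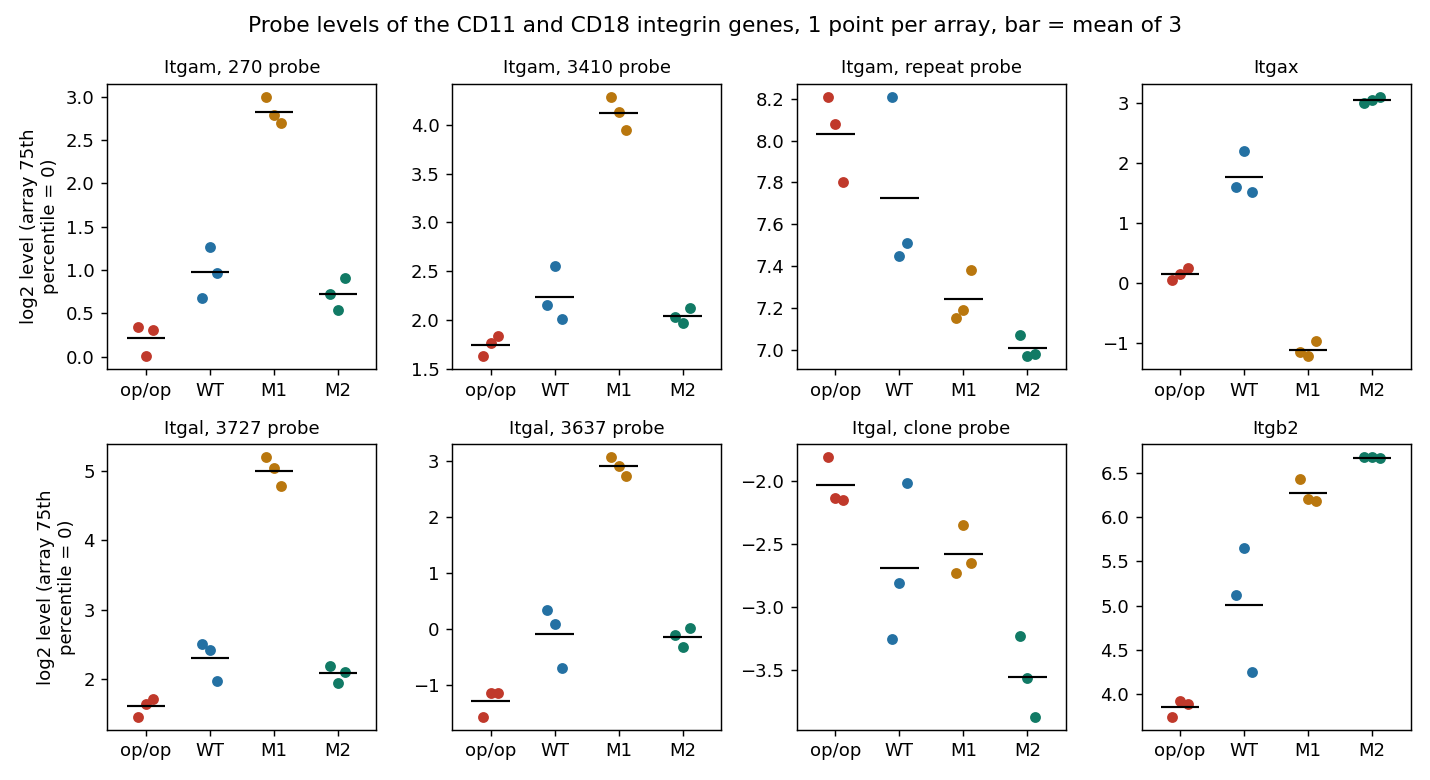
Level of each of the 8 probes (y axis, log2 signal with the array's 75th percentile at 0; each panel has its own scale) on every array of the 4 groups (x axis), with a bar at the mean of 3 arrays. The Itgax panel has its M2 points near 3 and its M1 points near -1, whereas the Itgam 270 and 3410 and the Itgal 3637 and 3727 panels have M1 on top.

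Itgam, the gene of CD11b, was highest in M1 cells on the 3410 probe and on the 270 probe. The 3410 probe stood at 1.63, 1.76 and 1.83 on the op/op arrays, against 2.15, 2.55 and 2.01 on the WT arrays. It stood at 4.29, 4.13 and 3.95 on the M1 arrays, against 2.03, 1.97 and 2.12 on the M2 arrays. All op/op values lay below all WT values, though by a narrow gap, and the M1 arrays lay far above the other 9. The 270 probe, 3140 transcript bases upstream, gave 0.34, 0.01 and 0.31 in op/op, against 0.68, 1.27 and 0.97 in WT, and 3.0, 2.79 and 2.69 in M1, against 0.72, 0.54 and 0.91 in M2. Centred on their own means, the 270 and 3410 probes differed by a root mean square of 0.17 over the 12 arrays.
Itgam was thus 1.41-fold (-0.50, interval -0.88 to -0.11, adjusted p = 0.0332) and 1.69-fold (-0.75, interval -1.18 to -0.33, adjusted p = 0.00854) lower in op/op against WT cells on these probes. It was 4.22-fold and 4.30-fold higher in M1 than in M2 cells (2.08 and 2.10, adjusted p = 7.77e-06 and 1.51e-05). Below M1, the WT and M2 levels did not differ past the threshold on either probe (adjusted p = 0.353 and 0.281), while op/op lay below M2 on the 270 probe (adjusted p = 0.0314) and not past the threshold on the 3410 probe (adjusted p = 0.136). These placings against M2 depended on the setting: cyclic loess made WT higher on both probes (0.48 and 0.47, adjusted p = 0.0198 and 0.0451), as did array weights (0.39 and 0.48), quantile normalization did so on the 3410 probe (0.44), and normexp made op/op lower on the 3410 probe (-0.39). The op/op call on the 270 probe was lost under cyclic loess (-0.14), with slide as a random block (adjusted p = 0.0781), at 2-fold, and without op/op replicate 2 (-0.40), M2 replicate 2 (-0.51) or M2 replicate 4 (-0.41). The op/op difference on the 3410 probe lost its call when WT replicate 2 (-0.34), op/op replicate 1 (-0.44) or op/op replicate 2 (-0.50) was left out.

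The Itgam repeat probe gave another picture. It read 8.21, 8.08 and 7.80 on the op/op arrays, against 8.21, 7.45 and 7.51 on the WT arrays, and 7.15, 7.19 and 7.38 on the M1 arrays, against 7.07, 6.97 and 6.98 on the M2 arrays. Op/op and WT overlapped through WT replicate 1, the array that was alone on its slide, and M1 lay just above M2. Neither difference passed: 0.31 in op/op against WT (interval -0.16 to 0.77, adjusted p = 0.228) and 0.24 in M1 against M2 (interval -0.23 to 0.70, adjusted p = 0.54). Within the shared renal slide, which leaves out WT replicate 1, op/op exceeded WT by 0.55 (adjusted p = 0.0196).
Of the probes on the array, 34 (0.0611%) hold 8 or more CA units in a row, and the 33 others carry 33 different gene names. The repeat probe's profile lay at a root mean square distance of 0.11 from the median profile of those 33 probes, and at 1.27 and 1.2 from the Itgam 270 and 3410 probes. The 33 probes had a median op/op minus WT difference of 0.39 (0.19 to 0.81), with 12 called higher and 0 lower where 27.5% of all probes were called higher, and a median M1 minus M2 difference of 0.07 with 0 called in limma, also 0 at an unadjusted p under 0.05. The count of 12 was 32 without WT replicate 1, 8 to 11 without any 1 of the other arrays, 32 with slide as a term, 4 under quantile normalization, 3 with only the groups compared and 0 at 2-fold. A further 71 probes hold the same repeat on the opposite strand, with medians of 0.31 for op/op minus WT and 0.19 for M1 minus M2. Of these 71, 0 were called in either comparison, where 56% and 17.8% of all probes were called. The part of the repeat in the value of this Itgam probe was not tested, and Itgam is described below by its 3410 probe, a choice made after the values were seen.

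**Figure D2:**
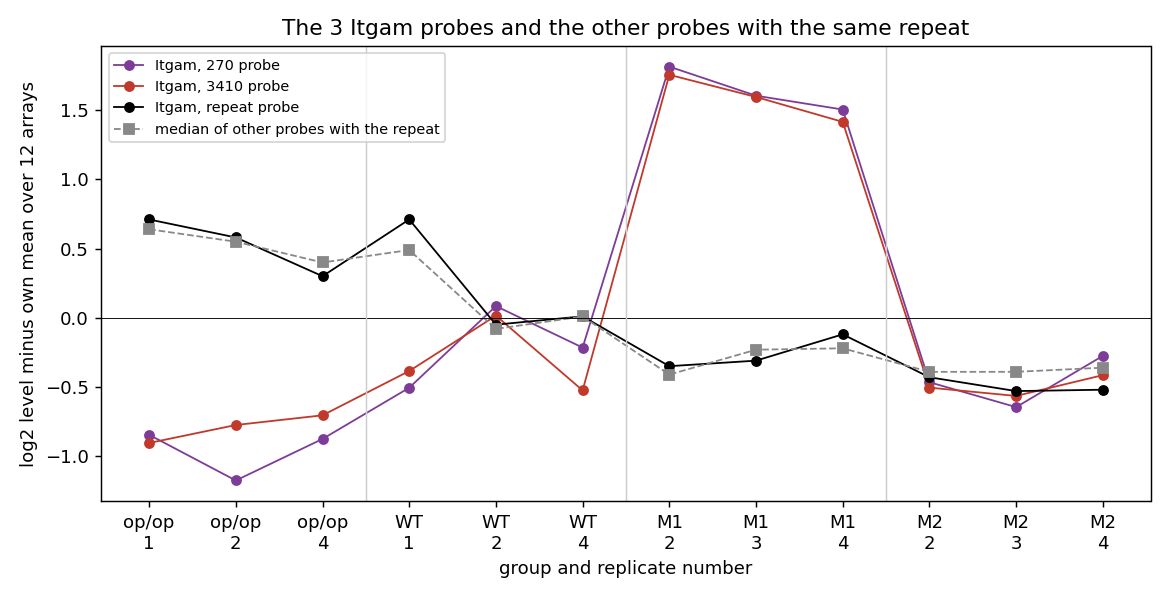
Level of the 3 Itgam probes and the median of the 33 other probes with the repeat on each array (x axis: group and replicate number), each line shifted so that its mean over the 12 arrays is 0 (y axis, log2). The 270 and 3410 lines peak together on the 3 M1 arrays, where the repeat probe and the median of the other repeat probes lie below 0.

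Itgal, the gene of CD11a, followed the Itgam order with larger differences in the marrow cells. The 3727 probe read 1.46, 1.64 and 1.72 on the op/op arrays, against 2.5, 2.42 and 1.98 on the WT arrays. It read 5.19, 5.03 and 4.78 on the M1 arrays, against 2.19, 1.95 and 2.11 on the M2 arrays. The op/op arrays were lowest with no overlap with WT, the M1 arrays stood apart at the top, and WT and M2 overlapped. Against M2, op/op was called lower on this probe (-0.48, adjusted p = 0.0325). That call was lost under quantile normalization (-0.27), cyclic loess (0.01), with slide as a random block (-0.41) and at 2-fold. It was also lost without op/op replicate 1 or 2 or M2 replicate 2 or 4. Under cyclic loess WT exceeded M2 (0.50, adjusted p = 0.0309). The 3637 probe, 96 genome bases away, read -1.57, -1.15 and -1.15 in op/op, against 0.33, 0.08 and -0.69 in WT, and 3.07, 2.92 and 2.74 in M1, against -0.10, -0.32 and 0.01 in M2. Itgal was 1.62-fold (-0.70, adjusted p = 0.0097) and 2.30-fold (-1.2, adjusted p = 0.00341) lower in op/op than in WT, and 7.54-fold (2.92, adjusted p = 8.04e-07) and 8.25-fold (3.04, adjusted p = 6.24e-06) higher in M1 than in M2.
The clone probe, whose letters span 57 genome bases for 60 probe letters, went another way. It read -1.81, -2.13 and -2.15 in op/op, against -3.25, -2.81 and -2.01 in WT, and -2.73, -2.35 and -2.65 in M1, against -3.23, -3.56 and -3.87 in M2. Op/op overlapped WT through WT replicate 4, and the difference did not pass (0.66, interval 0.03 to 1.29, adjusted p = 0.0688). It passed without that array (1.0, adjusted p = 0.00491) and with normexp background correction (0.49, adjusted p = 0.0141). M1 exceeded M2 1.97-fold (0.98, adjusted p = 0.0354), a call lost without any 1 of 5 of the 6 marrow arrays, all but M2 replicate 2 (0.82 to 1.06 in those 5 fits). Its distance to the 3637 and 3727 probes was 1.79 and 1.48, against 0.33 between those probes.

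Itgb2, the shared beta chain CD18, was high in both marrow cultures and lowest in op/op renal cells. It read 3.74, 3.92 and 3.88 on the op/op arrays, against 5.12, 5.65 and 4.25 on the WT arrays. It read 6.43, 6.21 and 6.18 on the M1 arrays, against 6.68, 6.68 and 6.67 on the M2 arrays. Op/op did not overlap WT, although WT replicate 4 came close, and M1 lay a little below M2. Itgb2 fell 2.23-fold in op/op against WT (-1.16, interval -1.77 to -0.55, adjusted p = 0.00629), and the M1 minus M2 difference of -0.40 did not pass (interval -1.02 to 0.21, adjusted p = 0.396). The order was M2, M1, WT and op/op, with M1 above WT at adjusted p = 0.00244.

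The comparison of op/op with WT asks how the sorted kidney cells differ where M-CSF is missing. Of the 8 probes, 6 fell, 0 rose and 2 did not pass: Itgax, Itgb2, the Itgam 270 and 3410 probes and the Itgal 3637 and 3727 probes fell, while the Itgam repeat probe and the Itgal clone probe had differences above 0, the clone probe with an unadjusted p under 0.05. Within the shared renal slide, the 6 differences were -1.7 for Itgax, -1.1 for Itgb2, -0.90 and -0.54 for the Itgam 270 and 3410 probes, and -0.60 and -0.99 for the Itgal 3727 and 3637 probes, all called. Of all probes tested in this comparison, 28.5% were called lower and 27.5% higher, 56% in all. The 6 probes that fell are also those whose op/op and WT arrays did not overlap, as was so for 56.4% of all probes tested. In a fit on the 6 renal arrays alone, which does not borrow the smaller spread of the marrow arrays, 3 of the 8 probes were called: the Itgax, Itgb2 and Itgal 3637 probes. The Itgam 270 and 3410 and the Itgal 3727 probes kept their differences but had adjusted p = 0.0525, 0.139 and 0.0594 there.
Marker genes of other cells moved in the same comparison, where by gene 30.3% of all genes rose and 28.1% fell. Of 10 macrophage markers 8 fell and 0 rose, with a summed signal (in multiples of the array's 75th percentile) of 56.7 to 61.1 in op/op and 87.1 to 182 in WT, and of 5 pan-leukocyte markers 4 fell, with sums of 14.9 to 18.0 and 27.2 to 50.5. T cell markers rose in 3 of 5 tested cases (sums 57.5 to 79.2 in op/op and 15.0 to 43.5 in WT, with Cd3g not above background in either) and B cell markers in 4 of 5, with 1 lower (sums 3.46 to 5.11 and 1.86 to 2.35). The T cell sums were 12.8 to 15.4 in M1 and 12.9 to 15.9 in M2. Cd3d and Cd5 did not pass, and Cd8a was not above background on any op/op array. Neutrophil markers, whose cells carry CD11b and CD18, rose in 3 of 9 cases (sums 311 to 350 and 253 to 308), and proximal tubule markers fell in 7 of 8 (sums 21.0 to 65.6 and 113 to 235). The 3 neutrophil genes were Ngp (1.74), Mpo (1.61) and Elane (1.27). Csf3r, the brightest of the 9, made up most of the neutrophil sums. On the log2 scale Csf3r read 8.14 in op/op, 7.89 in WT, 7.6 in M1 and 7.31 in M2. It did not pass, nor did S100a8, S100a9, Ly6g, Cxcr2 and Retnlg. Of 8 dendritic cell markers 1 fell (sums 5.44 to 6.36 and 5.90 to 7.09). Monocyte markers fell in 2 of 5 tested cases (sums 17.5 to 21.5 in op/op and 31.7 to 42.7 in WT). NK cell markers rose in 2 of 4 (sums 17.5 to 23.6 and 11.4 to 11.6). The part of these cells in the integrin values was not tested. In bulk RNA, fewer cells of a type and less RNA of a gene per cell cannot be told apart.

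**Figure D3:**
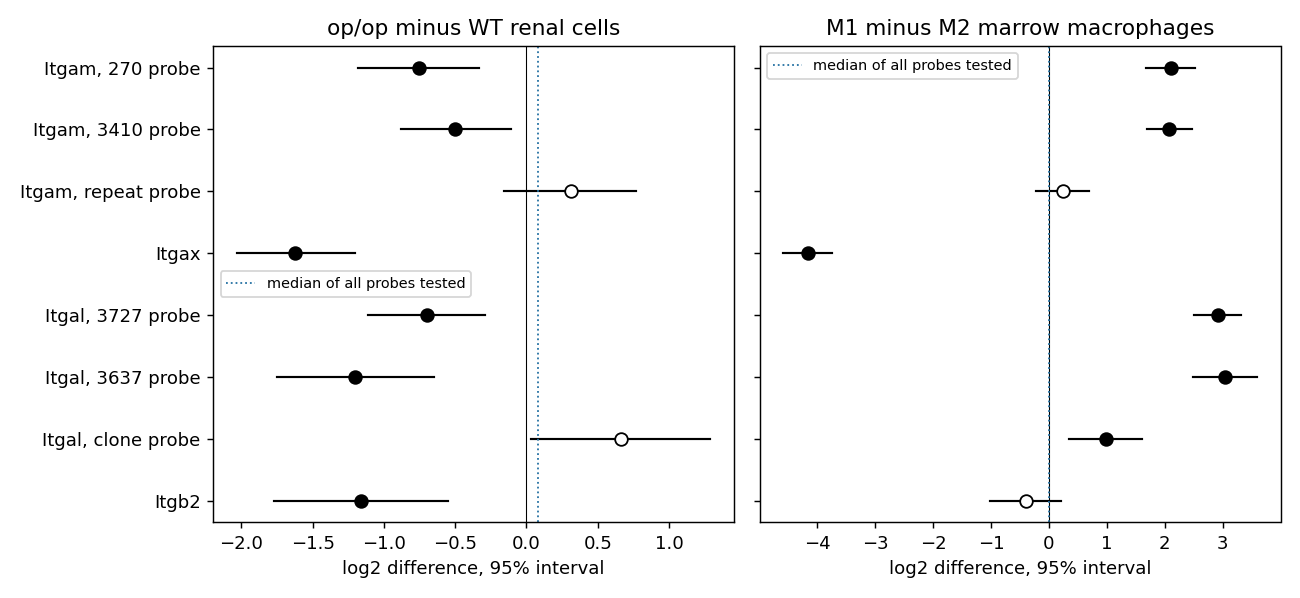
Difference of each probe (y axis) in op/op minus WT renal cells (left) and in M1 minus M2 cells (right), on the x axis as log2 with its 95% interval; filled points were called at adjusted p under 0.05 and open points were not, and the dotted line is the median of all probes tested. Itgax is the 1 called probe that is lower in M1, at -4.16, while the called Itgam and Itgal probes lie between 0.98 and 3.04.

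The comparison of M1 with M2 asks how the integrins respond to the culture that polarizes the cell. Of the 8 probes, 5 rose (the Itgam 270 and 3410 probes and the 3 Itgal probes), 1 fell (Itgax), and 2 did not pass (the Itgam repeat probe and Itgb2). Of all probes tested, 17.8% were called, 8.9% as higher and 8.89% as lower. The M1 and M2 arrays did not overlap on any of the 8 probes, nor did they on 51.2% of all probes tested. The alpha chains thus split: the genes of CD11a and CD11b were higher with LPS and GM-CSF, the gene of CD11c was higher with IL-4 and M-CSF, and the beta chain gene had no called difference, although Itgb2 was called lower in M1 with only the groups compared (adjusted p = 0.0194) and with array weights (adjusted p = 0.0498). Of the 10 macrophage markers 9 were tested, with 3 higher and 0 lower, and their sums were 217 to 242 in M1 and 200 to 206 in M2. Monocyte markers were higher in 3 of 5 cases and lower in 1 (sums 45.5 to 52.6 in M1 and 13.2 to 14.6 in M2), and neutrophil markers lower in 4 of 9 and higher in 1 (sums 253 to 307 and 246 to 274). Fibroblast and mural markers were higher in 3 of 5 cases, among them Dcn (9.22-fold) and Col3a1 (4.28-fold), with sums of 52.0 to 79.2 in M1 and 60.1 to 74.6 in M2. The part of these cells in the integrin values was not tested either.

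Renal and marrow cells were compared with the slide confounded, since each slide holds cells of 1 source, so slide and source cannot be told apart. Against the mean of M1 and M2, the mean of op/op and WT was lower on 5 probes and higher on 2 (the Itgam repeat and Itgal clone probes, at 0.75 and 0.71). Both higher calls were lost under quantile normalization (0.09 and 0.18) and at 2-fold, and the clone probe's also under cyclic loess (0.14) and with slide as a random block (0.59). Of all probes 79.5% were called, 33.9% as lower and 45.6% as higher. Itgb2 was lower by a log2 difference of -2.04 (adjusted p = 1.98e-06), Itgam by -1.09 and -1.18 on the 3410 and 270 probes, and Itgal by -1.58 and -2.08 on the 3727 and 3637 probes. Itgax had a difference of -0.01 (interval -0.30 to 0.29), with the renal levels lying between those of the marrow cultures. The sort for CD11b and CD11c did not go with a higher renal level of either transcript than in both cultures: on the 3410 probe Itgam was 3.69-fold lower in WT than in M1, and Itgax was 2.42-fold lower in WT than in M2. By gene, 47.2% of all genes were higher and 34.6% lower in renal cells. Proximal tubule markers were higher in 8 of 8 cases and distal nephron markers in 6 of 6. Endothelial markers were higher in 5 of 5 and dendritic cell markers in 8 of 8. Proximal tubule sums were 21.0 to 65.6 in op/op, 113 to 235 in WT, 1.48 to 1.62 in M1 and 2.6 to 2.9 in M2. Macrophage markers were lower in 7 of 10 cases and higher in 2. The part of these cells in the integrin values was not tested.
Single renal groups set against single cultures gave these counts. WT against M1 had 1 probe higher and 5 lower, where 57% of all probes were called (32.8% higher and 24.2% lower). WT against M2 had 2 higher and 2 lower, beside 62.1% of all probes (35.6% higher and 26.5% lower). Op/op against M1 had 2 higher and 5 lower, beside 78.9% (43.5% higher and 35.4% lower), and op/op against M2 had 2 higher and 5 lower, beside 81.4% (44.7% higher and 36.7% lower). The higher probes against M2 were the Itgam repeat and Itgal clone probes, in WT as in op/op. The repeat probe was also higher in op/op than in M1. Its calls were lost under quantile normalization (0.07 to 0.11), as was the WT call of the clone probe (0.34). That clone probe call was lost in other settings too, among them cyclic loess (0.36). Of the 33 other repeat probes, 32 were called higher in renal than in marrow cells, as were 71 of 71 on the opposite strand. Itgax was the 1 gene whose renal level exceeded that of M1 on a RefSeq probe without the repeat, by 7.36-fold in WT and 2.40-fold in op/op. Op/op lay below M2 on Itgax (7.43-fold), Itgb2 (7.09-fold) and the Itgal 3637 probe (2.23-fold). These comparisons share their renal or marrow arrays.

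Whether the members changed by unequal amounts was read within each array, where the array's scaling cancels. Differences between probes depend on how each probe binds, so only their change between groups is read. Itgam (3410 probe) minus Itgax was 1.58, 1.61 and 1.59 on the op/op arrays, against 0.56, 0.36 and 0.51 on the WT arrays. The same difference was 5.44, 5.35 and 4.92 on the M1 arrays, against -0.96, -1.06 and -0.98 on the M2 arrays. Neither pair of groups overlapped, and the change was 1.12 in op/op against WT and 6.24 in M1 against M2. The exact 2-sided permutation test gave p = 0.1 for both, the smallest value that 3 arrays against 3 allow, and p = 0.118 after adjustment over 10 differences in each of the 2 comparisons.
Ptprc, the gene of CD45, which all leukocytes carry, did not pass in op/op against WT (-0.36, adjusted p = 0.151). Itgax minus Ptprc was 0.01, 0.00 and 0.10 in op/op, against 0.98, 1.42 and 1.47 in WT, a change of -1.26 without overlap. Itgb2 minus Ptprc was 3.70, 3.78 and 3.73 in op/op, against 4.51, 4.87 and 4.22 in WT, a change of -0.80 without overlap. Itgam minus Ptprc was 1.59, 1.62 and 1.68 in op/op, against 1.54, 1.77 and 1.98 in WT, where the groups overlapped and the change was -0.14 (exact permutation p = 0.4). Itgal (3727 probe) minus Ptprc changed by -0.34 without overlap, but by -0.05 with overlap when the 3 Itgal probes were averaged. The other 4 pan-leukocyte markers fell more than Ptprc did: Cd53 by 1.76, Laptm5 by 1.37, Coro1a by 1.16 and Cd52 by 1.10 on the log2 scale, so the changes relative to Ptprc hold for this 1 scale gene.

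**Figure D4:**
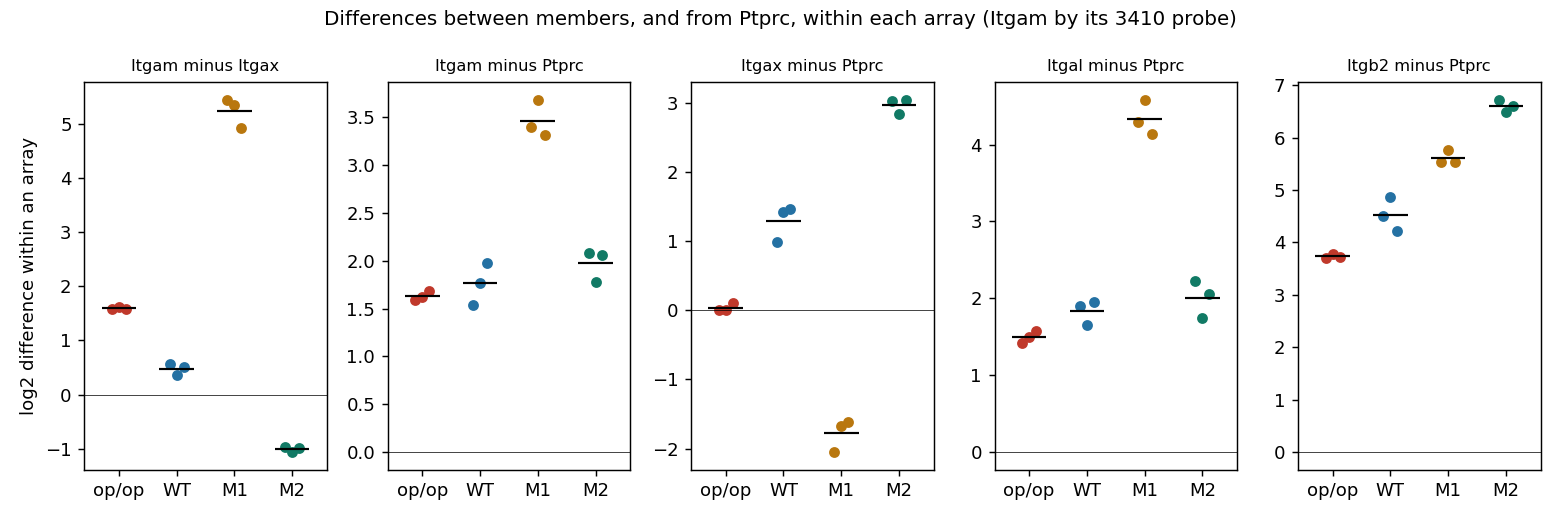
Differences within each array between Itgam and Itgax and between each member and Ptprc (y axis, log2; each panel has its own scale) for the 4 groups (x axis), 1 point per array with a bar at the mean of 3; Itgam is read on its 3410 probe and Itgal on its 3727 probe. Itgam minus Itgax is near 1.59 in op/op and 0.47 in WT, while Itgam minus Ptprc overlaps between them.

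Itgad, the gene of the remaining CD11 alpha chain, CD11d, was not well above background on any of the 12 arrays (levels of -6.70 to -4.08). Among the ligands, 11 of 12 listed genes were tested in op/op against WT, where 1 rose and 1 fell, with a median difference of 0.32. By gene, 30.3% of all genes rose and 28.1% fell in this comparison, with a median of 0.16. Icam1, the inducible ligand of LFA-1 and Mac-1, fell 2.73-fold (-1.45 ± 0.47, SE, adjusted p = 0.0218), with 2 of the 3 op/op arrays well above background, and Fcer2a, the low-affinity IgE receptor CD23, rose 1.68-fold (0.75 ± 0.17, adjusted p = 0.00539). The Icam1 call was lost without WT replicate 2 (-0.90), op/op replicate 1 (-1.13) or op/op replicate 2 (-1.35), with normexp (-0.53) and with only the groups compared. C3, the source of iC3b, did not pass (0.20, adjusted p = 0.402). In M1 against M2, 3 of 10 tested ligands rose and 0 fell: Icam1 12.1-fold (3.6), C3 5.17-fold (2.37) and Thy1 2.19-fold (1.13, a call lost without any 1 of 4 of the 6 marrow arrays, at 0.92 to 1.07), where 8.73% of all genes rose and 8.75% fell.

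In op/op against WT, 30.3% of all genes rose and 28.1% fell, with a median of 0.16. Of 9 tested genes that switch the integrins on from inside the cell, 6 fell and 0 rose in op/op cells. The list's median was -0.94, and the counts were also 6 and 0 at an unadjusted p under 0.05. The other 3, Rasgrp2 (0.11), Skap1 (0.34) and Cyth1 (0.13), did not pass. Fyb, the adaptor ADAP, fell 3.6-fold (-1.85) and Apbb1ip, which encodes the Rap1 effector RIAM, 3.47-fold (-1.80). Rap1b, the small GTPase, fell 2.18-fold (-1.13), Tln1, which encodes talin that binds the beta chain tail, 1.91-fold (-0.94), and Fermt3, which encodes kindlin-3, 1.66-fold (-0.73, adjusted p = 0.0495). The Fermt3 call was lost under most alternatives, among them leaving out any 1 array other than WT replicate 4 or op/op replicate 4. In M1 against M2, where 8.73% of all genes rose and 8.75% fell, Fyb (4.94-fold) and Rap1b (1.63-fold) rose. The other 7 did not pass, and the list's median was 0.03. The Rap1b call (adjusted p = 0.0297) was lost without any 1 of the 6 marrow arrays (adjusted p = 0.0699 to 0.0973) and with the replicate block (adjusted p = 0.0978), and 4 genes were called with only the groups compared or with array weights.
Of the signalling genes downstream of CD18, 11 of 11 fell in op/op against WT, where 28.1% of all genes fell and 30.3% rose. The list's median was -1.17, against 0.16 over all genes. The Vav3 probe, which counts among the 11, was not well above background in op/op cells. The Lcp2 probe was well above it on 1 of 3 op/op arrays. With normexp Vav3 was at 0.10 and with a floor at -0.01, neither called. Pik3cd (-0.79) lost its call with only the groups compared (adjusted p = 0.053). The 11 include Lyn, a Src family kinase (2.96-fold), Lcp2, the adaptor SLP-76 (4.14-fold on measured values that were mostly near background in op/op), Vav1, a guanine nucleotide exchange factor (2.37-fold), Tyrobp, the adaptor DAP12 (2.25-fold), and Syk, the kinase it recruits (1.83-fold). In M1 against M2, 7 rose, 1 fell and 3 did not pass, with a median of 0.96, where 8.73% of all genes rose and 8.75% fell. Among the 7, Syk rose 1.69-fold (0.75, adjusted p = 0.0183). Its call was lost without M1 replicate 2 or 4 or M2 replicate 2 or 3 (adjusted p = 0.0589 to 0.0717). Lyn rose 3.71-fold (1.89), Lcp2 3.30-fold (1.72) and Vav1 3.12-fold (1.64), and Vav3 fell 2.43-fold (-1.28), a call lost without M1 replicate 3 (-1.19) and under quantile normalization (-1.13). Tyrobp (-0.18), Plcg2 (0.15) and Fgr (0.48) did not pass. Many of these genes are made by macrophages in general, whose markers moved in the same direction in op/op cells. That part was not tested.
The other integrin subunits showed no shared direction in the renal cells. Of 19 tested, 4 rose and 4 fell in op/op against WT, where 30.3% of all genes rose and 28.1% fell. The median over the 19 was -0.07, against 0.16 over all genes. Itgb8 was not well above background in op/op cells and was at least 1.1-fold lower there than in WT (adjusted p = 0.00248), a call lost with normexp (-0.20) and with a floor (-0.18). Itga5, the fibronectin receptor alpha chain, fell by 1.16, Itgb5 by 0.88 and Itgav by 0.80 on the log2 scale. The Itgav call was lost without any 1 of WT replicates 1 and 2 and op/op replicates 1 and 2 (-0.83 to -0.44), and without any 1 of the M1 arrays (-0.80). Itgb3 (1.10), Itga7 (1.04), Itga2b (0.94) and Itga6 (0.67) rose, the last not without WT replicate 1 (0.49) or op/op replicate 1 (0.54). With only the groups compared, Itgb3 and Itga6 lost their calls (adjusted p = 0.0508 and 0.0766). With array weights, Itga2b and Itga6 lost theirs (adjusted p = 0.0535 and 0.0544). In M1 against M2, 5 of 16 rose and 0 fell, beside 8.73% and 8.75% of all genes. Itga11 (2.31) and Itga5 (2.04) were among those that rose. Itga1, not well above background on any M2 array, was at least 2.32-fold higher in M1 (adjusted p = 0.00205), a call lost with a floor (0.64). A bound sets the brighter group's mean against the lowest signal that was well above background on each array of the dimmer group, or the probe's own signal where that was higher.

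**Figure D5:**
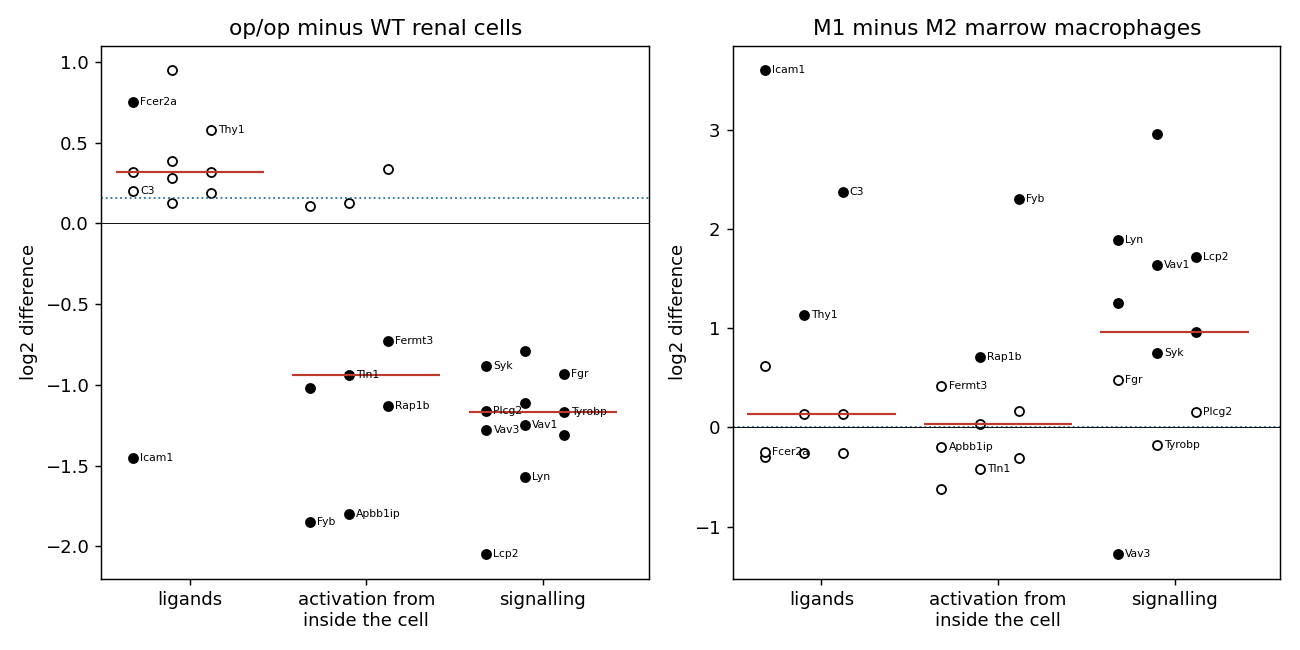
Log2 difference (y axis) of each tested gene among the CD18 integrin ligands, the genes of activation from inside the cell and the signalling genes (x axis) in op/op minus WT renal cells (left) and M1 minus M2 cells (right). Filled points were called, and most genes named in the text are labelled. The red bar is the list's median and the dotted line the median of all genes. The 11 signalling genes lie between -2.05 and -0.79 on the left, and Lyn is at 1.89 on the right.

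Genes with the profile most like that of each member were ranked by the root mean square distance over the 12 arrays, each probe centred on its own mean, among 15552 probes that were well above background on every array, 1 a gene. Itgax was followed by Ptgs1, which encodes cyclooxygenase 1 (0.36), and then Sort1, Gcnt1, Add3 and Egr2 (0.43 to 0.56). Itgal on its 3727 probe was followed by Trim34a (0.20), Alpk1, Zup1, Lst1 and Tnip1 (0.24 to 0.27), and Itgb2 by Anxa5, Rps26, Atp6v0c, Cct2 and Camk2d (0.13 to 0.14). Itgam on its 3410 probe was followed by Vasp (0.18), Slc16a3, Rnf114, Ifi35 and Btg3 (0.19 to 0.21). The repeat probe of Itgam had Mcidas, Synpo2l, Septin3, Fbxo31 and Ung nearest (0.06 to 0.08), and the probes of 4 of these 5 genes hold 8 or more CA units on 1 of the strands. The distances of different members cannot be set against each other, since a profile that varies little has near neighbours.

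Itgam and Itgax are neighbours on chromosome 7: their nearest probes lie 32297 bases apart, and the last Itgal probe lies 734980 bases before the first Itgam probe. Within 100 kb of the members lie 31 probes of 23 other gene names. Of the 26 tested, 8 rose and 6 fell in op/op against WT, and 0 rose and 3 fell in M1 against M2 in limma (2 higher and 3 lower at an unadjusted p under 0.05). Of all probes tested, 27.5% rose and 28.5% fell in op/op against WT, and 8.9% rose and 8.89% fell in M1 against M2. Near Itgam, Pycard, the inflammasome adaptor ASC, had differences of -0.05 (adjusted p = 0.819) in op/op against WT and -0.65 (adjusted p = 0.0357) in M1 against M2.
The 100 bases before the start site are shown for Itgam and Itgax, the neighbours that went opposite ways in M1 against M2, from RefSeq on GRCm38.p6 (chr7:128062540-128062639 and chr7:128129450-128129549, plus strand). The capitals mark GAGGAA, the core letters bound by the myeloid factor PU.1, on either strand (as TTCCTC on the other), and TGANTCA, the letters bound by AP-1.
Itgam promoter: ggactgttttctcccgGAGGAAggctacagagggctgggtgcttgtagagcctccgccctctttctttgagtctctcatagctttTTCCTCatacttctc
Itgax promoter: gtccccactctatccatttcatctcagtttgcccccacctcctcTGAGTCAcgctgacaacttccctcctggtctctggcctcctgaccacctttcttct
In the 300-base windows of the table, which reach beyond the start site, Itgam holds GAGGAA at -84, -15 and 33 and no TGANTCA, and Itgax holds TGANTCA at -56 and no GAGGAA. The motifs were searched on both strands and do not overlap. Of 32851 mouse promoters of that length, 28.3% hold GAGGAA and 7.81% hold TGANTCA. A match of letters is a description of the window and does not show binding.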

How the data were processed

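The scanner files and the value table are those the authors deposited. Each deposited intensity is a background-corrected spot signal, written by Feature Extraction 10.7.3.1 from Agilent, per the file headers. RNA was prepared with the RNeasy Micro kit, amplified as cDNA with the Ovation PicoSL WTA system and labelled with Cy3, per the labels' protocols. The value table, deposited as log2 values, correlated at r = 1.0 with the log2 scanner signals of the same array and was centred at the 75th percentile (column medians -2.47 to -1.88). It served as an alternative. Positions are those of the files (mm9).

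Spots of 1 probe were averaged, and 30 probes with outlier flags were dropped, leaving 55651. The processed signal was taken to log2 and each array's 75th percentile subtracted. The tests used limma 3.58.1 (R 4.3.3), with a common spread for the 12 arrays and Benjamini-Hochberg adjustment. A comparison tested the probes that cleared the scanner's background call on all arrays of either group. No probe was saturated. A gene in a list was read on its probe with the highest mean. Names came from the transcript accession for 27509 probes, the symbol for 3549, a synonym for 404 and the file for 24219. Promoters were looked up by symbol in RefSeq tables, where 2 of the 4 members matched. Other tools were statmod 1.5.0, Python 3.11.15, pandas 2.3.3, numpy 2.4.6, scipy 1.17.1 and matplotlib 3.10.9. The fit was tested on simulated data.

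The members, lists, markers and tests were chosen with earlier results of these data known. The genes named are every member probe, up to 4 called and 4 further genes of each list, Ptprc, the 5 most alike genes, and genes within 100 kb, of which some are not reported here. Reading Itgam on its 3410 probe, the set of repeat probes, and the check of the cultures with Nos2 and Arg1 were added after the values were seen. Same-numbered arrays of 2 groups did not deviate together (r = -0.26, 0.11 and -0.15 for op/op and WT, -0.07, 0.21 and 0.16 for M1 and M2), so the numbers were not taken as pairs. Alternatives changed the background correction (normexp, offset 50), the normalization (quantile, cyclic loess, another centring, the deposited table), the filter and the floor, the samples and the variance model of the fit, the slide or replicate number as a block, the threshold (2-fold) and the arrays, 1 left out at a time.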

Additional observations from a re-analysis of the deposited data

How the results depend on the processing

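Itgax, Itgb2 and the Itgal 3637 probe kept their direction and call in op/op against WT under every alternative run, and Itgax and the Itgam and Itgal RefSeq probes without the repeat did so in M1 against M2. In op/op against WT, the number of called probes was 3 with only the groups compared and 3 at 2-fold (5 to 7 without single arrays). Only the groups compared gave adjusted p above the threshold for the Itgam 3410 (-0.50), Itgam 270 (-0.75) and Itgal 3727 (-0.70) probes, and at 2-fold the same 3 (-0.50, -0.75 and -0.70) were not called. The 3410 probe also lost its call under cyclic loess (-0.29) and, without single arrays, ranged from -0.61 to -0.34. With the replicate block, the 3410 probe (-0.50, adjusted p = 0.068) and the M1 minus M2 clone probe (0.98) lost their calls, as did Fermt3 and Itgav in op/op against WT and Rap1b and Vav3 in M1 against M2, and the block changed no other call of a member probe there. The repeat probe was -0.02 under quantile normalization, 0.55 and called with slide as a term, and 0.17 to 0.55 without single arrays. The clone probe was called with normexp (0.49) and ranged from 0.38 to 1.0. In M1 against M2, the clone probe was not called with normexp (0.43), quantile normalization (0.92), the floor (0.72) or at 2-fold (0.98), and ranged from 0.82 to 1.14. Itgb2 was called with only the groups compared (-0.40) and with array weights (-0.41).

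In renal against marrow cells, Itgax turned to 0.08 under quantile normalization, 0.23 under cyclic loess and 0.14 with array weights, and ranged from -0.11 to 0.06 without single arrays. Cyclic loess also turned op/op against M1 on the clone probe (-0.07) and op/op against M2 on the Itgam 3410 (0.19) and Itgal 3727 (0.01) probes. Normexp turned WT against M1 on the clone probe (0.09, and -0.45 to 0.17 without single arrays), and WT against M2 on the 3637 probe ranged from -0.17 to 0.34. WT against M2 had 2 called probes at 2-fold. Within an array, the change of Itgam minus Itgax was 1.92 with the repeat probe, 1.12 with the 3410 probe and 1.30 with the mean of probes in op/op against WT, and 4.39, 6.24 and 5.63 in M1 against M2. Itgam minus Ptprc was 0.67 with the repeat probe and -0.14 with the 3410 probe in op/op against WT, and -0.35, 1.49 and, with the mean of probes, 0.88 in M1 against M2. The activation list's M1 minus M2 median was -0.20 with the mean of a gene's probes. Of all probes, 13502 were called in op/op against WT with only the groups compared, against 22743 in the fit reported, and in M1 against M2 14484 with only the groups compared and 15221 with array weights, against 6985. The causes were not tested. Slide as a term could not be estimated for renal against marrow cells.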
